A study of Homo sapiens with 20 samples.

Results

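The subject is the difference between what the KDM4 inhibitor QC6352 did to gene expression in Rh30 cells and what a short hairpin RNA against KDM4B did in the same cells. It was computed per gene as (QC6352 minus DMSO) minus (KDM4B hairpin minus control hairpin). The 10 arrays behind it, of 20 in the series, were taken by their titles. Rh30 is a human cell line of alveolar rhabdomyosarcoma, a childhood tumour of the skeletal muscle lineage, and it carries the PAX3-FOXO1 fusion gene. The groups were Rh30 treated with 200 nM QC6352 for 48 h (n = 3 arrays), Rh30 transduced with KDM4B shRNA for 72 h (n = 2), Rh30 treated with DMSO, the vehicle, for 48 h (n = 3) and Rh30 transduced with control shRNA for 72 h (n = 2). Total RNA was measured on Clariom S human arrays, and all values are log2 signals per gene. The other 10 arrays held Rh41, a further alveolar rhabdomyosarcoma line, with QC6352 or DMSO for 48 h (n = 3 each), and Rh30 with siRNA against KDM4C or control siRNA for 72 h (n = 2 each).

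KDM4 enzymes are JmjC demethylases that use iron, oxygen and 2-oxoglutarate to take methyl groups off lysine 9 and lysine 36 of histone H3. Methylated lysine 9 marks silent chromatin, and methylated lysine 36 lies along transcribed gene bodies. KDM4A, KDM4B and KDM4C are broadly expressed large proteins with reader domains, while KDM4D and KDM4E are shorter and are found mostly in testis. QC6352 inhibits the KDM4 family as a whole, whereas a hairpin is aimed at the messenger RNA of a single member. In alveolar rhabdomyosarcoma the PAX3-FOXO1 fusion protein drives a set of myogenic and growth genes while terminal muscle differentiation stays blocked.

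Several features limit the comparison. The agents were given for different times and by different routes, with separate controls, so agent, time and delivery cannot be told apart. The labels give no number of hairpins and no rescue of KDM4B, so what came from loss of KDM4B cannot be told apart from anything else the hairpin did. The titles and the submitters' sample names disagree for 10 of the 20 arrays, and 6 of these are the DMSO and QC6352 arrays of Rh30 used here. The hairpin arrays carry no such conflict. With groups by sample name in place of the title, the count of genes with a difference past the threshold was 613, against 4331 by title, and 364 genes were shared. The 4 gene classes defined below then held 2, 120, 5 and 0 genes, against 553, 88, 305 and 58 by title. Every direction given for QC6352 in Rh30 therefore rests on the titles. Replicate arrays of the Rh30 QC6352 and DMSO groups correlated across genes at r = 0.990 to 0.995 by title and at r = 0.977 to 0.995 by sample name. Array medians lay between 6.95 and 6.99 in the 10 arrays and between 6.72 and 6.75 in the 4 arrays grouped here as siRNA. Replicate arrays of the 4 groups by title had an SD of their difference between 0.214 and 0.312 log2.

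Markers of the lineage were present in all 4 groups. DES, the muscle intermediate filament desmin, was at 11.61, 11.39 and 11.55 in QC6352 arrays, 11.48 and 11.48 in KDM4B hairpin arrays, 11.91, 11.73 and 11.64 in DMSO arrays and 11.80 and 11.72 in control hairpin arrays. MYOD1, a master regulator of the muscle lineage, was at 8.70, 8.95 and 8.73 in QC6352 arrays and at 10.15, 10.21 and 10.12 in DMSO arrays, with no overlap. Its levels were 9.40 and 9.71 in KDM4B hairpin arrays and 10.22 and 10.32 in control hairpin arrays, again apart. The log2 signals of 7 lineage markers summed to 63.6 to 65.0 in QC6352 arrays and 71.1 to 71.8 in DMSO arrays, and to 66.5 to 67.1 in KDM4B hairpin arrays and 69.8 to 70.7 in control hairpin arrays. In bulk RNA, fewer cells of a type and less RNA per cell cannot be told apart. Of 12 epithelial, 14 blood, 10 endothelial and 9 fibroblast markers, 0 had a difference in response past the threshold by limma. At an unadjusted p under 0.05 there were 2 epithelial, 1 blood, 2 endothelial and 1 fibroblast markers. The part of the lower lineage markers in the results below was not tested.

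KDM4B itself checks the hairpin. Its log2 signal was 6.01 and 6.15 in KDM4B hairpin arrays and 6.74 and 7.30 in control hairpin arrays, so the groups lay apart by less than 1 log2 unit at their nearest values. In QC6352 arrays it was 6.21, 6.83 and 6.94, and in DMSO arrays 6.63, 7.04 and 6.89, with overlap. KDM4B was 1.92-fold lower with the hairpin (-0.94 ± 0.23 log2, mean ± SE, adjusted p = 0.012), a partial loss at the level of RNA. QC6352 gave -0.19 ± 0.19 (adjusted p = 0.488), and the difference between the effects was 0.75 ± 0.30 (adjusted p = 0.0821), which did not pass the threshold of 0.05.

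The other family members were measured on the same arrays. KDM4A was at 8.58, 8.54 and 8.78 in QC6352 arrays and 8.08, 8.23 and 8.11 in DMSO arrays, all 3 treated arrays lying above all controls. Its hairpin values, 8.15 and 8.06 with the KDM4B hairpin and 7.99 and 8.19 with the control hairpin, overlapped. The difference in response for KDM4A was 0.47 ± 0.17 log2 (adjusted p = 0.0424). KDM4C had a QC6352 effect of 0.12 ± 0.15 and a hairpin effect of -0.27 ± 0.19, and neither passed the threshold. KDM4D was lower with QC6352 (-0.80 ± 0.23, adjusted p = 0.00923) and higher with the hairpin (0.94 ± 0.28, adjusted p = 0.0343), with a difference of -1.74 ± 0.36 (adjusted p = 0.00132). Its signals were near those of the background probe sets in the QC6352, DMSO and control hairpin arrays. KDM4E was near background in all 4 groups.

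Across the genome more genes were called for the inhibitor than for the hairpin. Of 17687 genes tested, limma called 6427 (36.3%) for QC6352 against DMSO, 3517 higher (19.9%) and 2910 lower (16.5%). For the KDM4B hairpin against the control hairpin it called 2047 (11.6%), 931 higher (5.26%) and 1116 lower (6.31%). The difference between these responses was called in 4331 genes (24.5%), of which 2307 (13.0%) were positive, meaning a higher response to QC6352, and 2024 (11.4%) were negative. Both effects were called in 1232 genes, 19.2% of the QC6352 calls and 60.2% of the hairpin calls, and these had the same sign in 809 and opposite signs in 423. Across all genes the 2 effects, which share no arrays, correlated with a Pearson r of 0.184 (Spearman rank correlation 0.129), where genes are not independent replicates. The precision differed too, with a median SE of 0.130 log2 for the QC6352 effect with 3 against 3 arrays and 0.159 for the hairpin effect with 2 against 2. The labels name the replicates biological without saying how the cultures were separated, so p-values rest on the spread among these arrays, whose number limits the precision.

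Genes were then sorted by the 2 effects. A gene counted as moved if its effect was called and at least 2-fold, and as held if its effect was not called and the 95% interval stayed within 1.5-fold either way, which is 0.585 log2. QC6352 moved 1283 genes (7.25%), 534 up (3.02%) and 749 down (4.23%). Of these, 553 (3.13% of all genes) were held by the hairpin, 253 were called the same way, 69 were called the opposite way, and for 408 the hairpin interval was too wide to call the gene held. The hairpin moved 271 genes (1.53%), 90 up (0.509%) and 181 down (1.02%). Of these, 88 (0.498%) were held by QC6352, 125 were called the same way, 41 the opposite way and 17 had too wide an interval. At the edge of the rule, the farther interval limit of the hairpin effect was 0.583 for CSTPP1, just inside, and 0.587 for MSRA, just outside. The class memberships follow from these values and are descriptions, and the adjusted p-values printed for members are those of the fit over all genes.

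**Figure D1:**
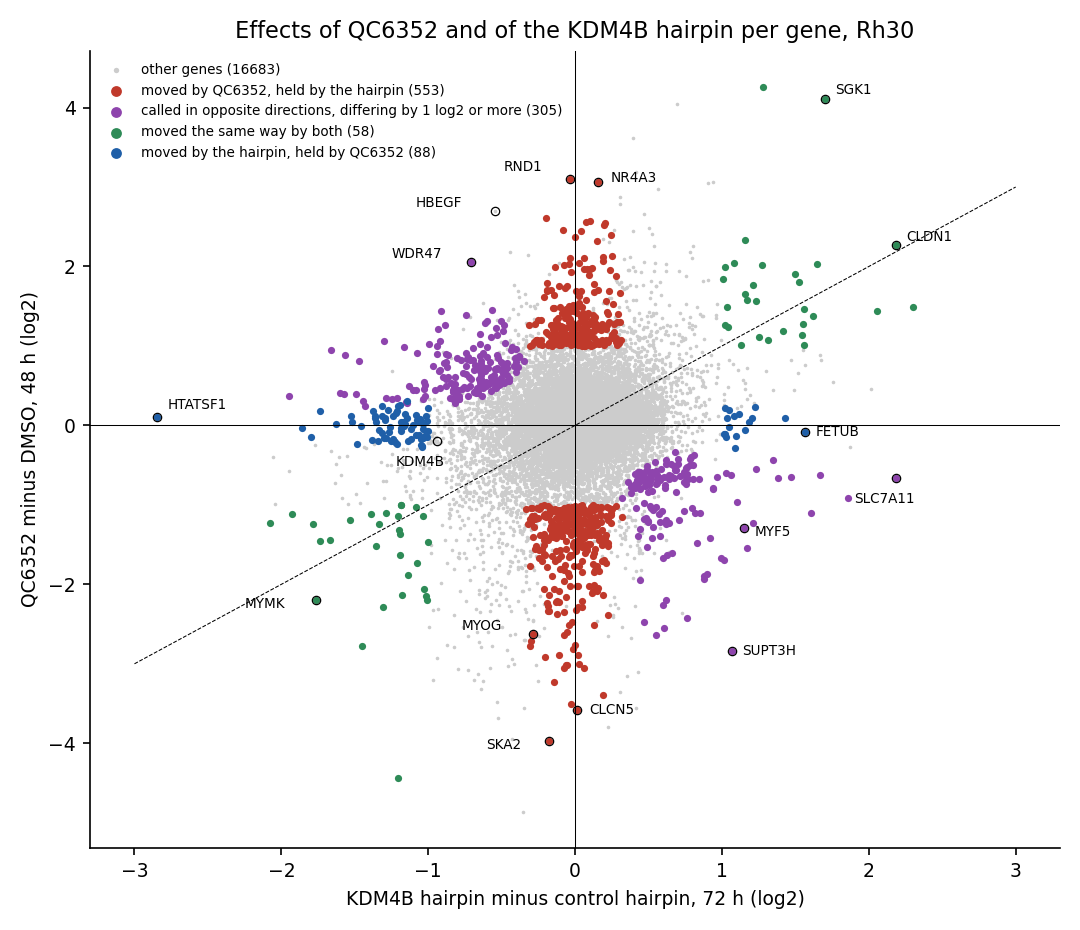
Each point is 1 of 17687 genes, with the KDM4B hairpin effect on the x axis and the QC6352 effect on the y axis, both as log2 differences of group means in Rh30. Red marks the 553 genes moved by QC6352 and held by the hairpin, blue the 88 genes of the reverse kind, purple the 305 genes called in opposite directions with a difference of at least 1 log2, green the 58 moved the same way by both, and the dashed line marks equal effects.

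Among the 553 genes that QC6352 moved and the hairpin held, 237 rose and 316 fell. The leading members named were chosen among genes whose QC6352 and DMSO arrays did not overlap, so that separation follows from the choice. Among the named rises was RND1, a GTPase that loosens actin-based adhesion. RND1 stood at 7.94, 7.74 and 8.20 log2 in QC6352 arrays and 4.66, 4.80 and 5.11 in DMSO arrays, where it was near background, so that the size of its rise is not well measured. In KDM4B hairpin arrays it stood at 5.35 and 5.24, and in control hairpin arrays at 5.18 and 5.48. The drug groups lay far apart and the hairpin groups overlapped, with a difference in response of 3.14 ± 0.28 log2 (adjusted p = 1.80e-07).

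NR4A3, an orphan nuclear receptor induced early after many stimuli, had 9.04, 8.38 and 9.08 in QC6352 arrays and 5.67, 5.80 and 5.85 in DMSO arrays. The hairpin groups, 6.32 and 5.99 with the KDM4B hairpin and 5.83 and 6.17 with the control hairpin, again overlapped. ID2 encodes an inhibitor of basic helix-loop-helix factors, among them the myogenic ones. Its signal was 11.41, 11.21 and 11.30 in QC6352 arrays and 8.59, 8.84 and 8.68 in DMSO arrays, and 8.53 and 8.72 in KDM4B hairpin arrays against 8.95 and 8.68 in control hairpin arrays. All 3 QC6352 arrays exceeded every other array of the 4 groups for RND1, NR4A3 and ID2. Further rises of this kind were in the xenobiotic hydrolase EPHX1 (QC6352 effect 2.46 ± 0.14, hairpin effect -0.08 ± 0.17), the amine oxidase AOC3 (2.56 ± 0.16 and 0.07 ± 0.20) and the olfactory receptor OR4F15 (2.57 ± 0.14 and 0.10 ± 0.17), which was near background outside the QC6352 arrays, so that its value has the same limit.

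The falls were larger. SKA2, a subunit of the kinetochore complex that holds chromosomes to spindle microtubules, was at 6.66, 7.08 and 6.90 in QC6352 arrays and 10.84, 10.78 and 10.91 in DMSO arrays, 15.6-fold lower. With the KDM4B hairpin it was at 10.70 and 10.65 and with the control hairpin at 10.86 and 10.85. The QC6352 arrays lay more than 3 log2 units under all others, and the difference in response was -3.79 ± 0.17 (adjusted p = 5.75e-11). CLCN5, an endosomal chloride and proton exchanger, had 6.38, 6.33 and 6.61 in QC6352 arrays and 10.10, 10.06 and 9.91 in DMSO arrays. Its hairpin values were 9.95 and 9.97 for KDM4B and 9.96 and 9.94 for the control, a hairpin effect of 0.01 ± 0.11 log2.

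MSTN encodes myostatin, the secreted inhibitor of muscle growth. It was at 5.75, 5.97 and 5.96 in QC6352 arrays and 9.32, 9.36 and 9.53 in DMSO arrays, and at 9.10 and 9.06 in KDM4B hairpin arrays against 9.02 and 9.19 in control hairpin arrays. The drug groups were apart and the hairpin groups overlapped. CMSS1, related to a yeast gene of the small ribosomal subunit, fell to near background (QC6352 effect -3.39 ± 0.13, hairpin effect 0.19 ± 0.16), so that the size of its fall is not well measured. The exocyst subunit EXOC4 (-3.06 ± 0.11 and 0.06 ± 0.13) and ELMO1, which activates Rac with DOCK proteins (-3.23 ± 0.09 and -0.14 ± 0.11), completed the leading falls.

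Several of these falls were in very long genes, which led to a look at gene length after the values were seen. In the RefSeq annotation of GRCh38.p14, EXOC4 spans 847874 bases, ELMO1 596421, CMSS1 363871 and CLCN5 176635, while SKA2 spans 45330 and MSTN 7030. A span was found for 17683 of the 17687 genes, with a median of 25.9 kb, and 17.4% of all genes exceed 100 kb. The 316 genes that fell with QC6352 and were held by the hairpin had a median span of 115 kb, and 174 of them (55.1%) exceed 100 kb. The 237 that rose had a median of 17.9 kb, and 6.75% exceed 100 kb. Genes that the hairpin moved and QC6352 held were nearer to all genes, with medians of 22.7 kb for rises and 36.9 kb for falls. Genes in opposite directions had medians of 34.9 kb where QC6352 raised them and 110 kb where it lowered them. Those moved the same way by both agents had medians of 17.5 kb for rises and 54.6 kb for falls. Of these rises 10.3% exceed 100 kb, and of these falls 37.9%.

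Length was then set against the effects over genes of every class, leaving out the 40% of probe sets with the lowest mean signal, and the longest genes had the lowest QC6352 effects and hairpin effects near 0. In the 120 remaining genes over 500 kb, the median QC6352 effect was -0.97 log2 and the median hairpin effect 0.06, with 65.8% called lower with QC6352 and 8.33% with the hairpin. In the 530 genes of 200 to 500 kb the medians were -0.60 and 0.01, and in the 1141 genes of 100 to 200 kb they were -0.17 and 0.01. In the 1231 genes of 5 to 10 kb they were 0.13 and 0.03. The median difference in response was -0.59 over the 650 genes longer than 200 kb and 0.07 over the 4189 shorter than 20 kb. Without the filter on low signals the median QC6352 effect was -0.07 in genes over 500 kb and -0.15 in those of 200 to 500 kb. Leaving out any of the 10 arrays kept the long-gene value between -0.57 and -0.62, and with groups by sample name it was 0.18. In Rh41 the median QC6352 effect was -0.25 in genes over 500 kb and -0.02 in those of 200 to 500 kb. The part of expression level in this gradient was not tested beyond that filter.

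**Figure D2:**
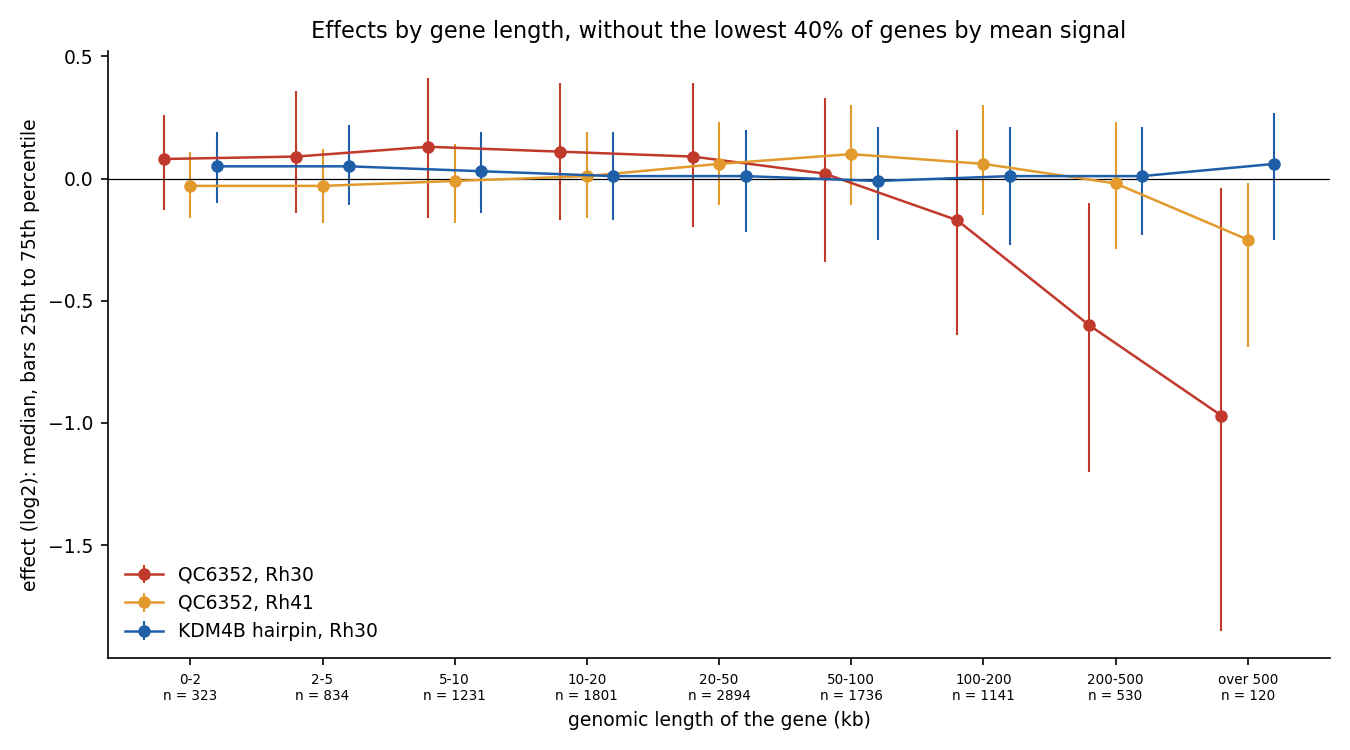
Median effect (log2, with bars from the 25th to the 75th percentile over genes) by genomic length of the gene, for QC6352 in Rh30 (red), QC6352 in Rh41 (orange) and the KDM4B hairpin in Rh30 (blue), without the lowest 40% of genes by mean signal. The red line falls to -0.60 at 200 to 500 kb and -0.97 over 500 kb, while the blue line stays at 0.01 and 0.06 in those bins.

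The reverse class, 88 genes moved by the hairpin and held by QC6352, held 17 rises and 71 falls. HTATSF1, a factor of transcription elongation and splicing, had the largest change. In KDM4B hairpin arrays it was at 6.07 and 5.75 log2, and in control hairpin arrays at 8.78 and 8.73, 7.2-fold lower. In QC6352 arrays it was at 8.81, 8.93 and 8.81, and in DMSO arrays at 8.68, 8.71 and 8.84. Both KDM4B hairpin arrays lay more than 2 log2 units under every other array while the drug groups overlapped, and the difference in response was 2.95 ± 0.16 (adjusted p = 3.94e-10).

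HMGN5, a nucleosome-binding protein, was at 6.79 and 6.78 in KDM4B hairpin arrays and 8.62 and 8.42 in control hairpin arrays. Its QC6352 values of 8.92, 8.35 and 8.61 overlapped the DMSO values of 8.60, 8.36 and 8.38. GTF2E2, a subunit of the general transcription factor TFIIE, was at 6.35 and 6.11 in KDM4B hairpin arrays and 8.36 and 7.82 in control hairpin arrays, with a QC6352 effect of -0.03 ± 0.15. The other leading falls were in EIF1AX, a translation initiation factor (hairpin effect -1.80 ± 0.15, QC6352 effect -0.14 ± 0.12), ARNT, the partner subunit of the hypoxia-inducible factors (-1.53 ± 0.15 and 0.12 ± 0.13) and BMS1, a GTPase of ribosome assembly (-1.63 ± 0.12 and 0.02 ± 0.10). For these falls both KDM4B hairpin arrays lay under both control hairpin arrays, which the choice of named members required.

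Rises in this class were smaller. FETUB, a fetuin known as a protease inhibitor secreted by liver, was at 6.83 and 6.33 in KDM4B hairpin arrays and 4.94 and 5.08 in control hairpin arrays, with a QC6352 effect of -0.08 ± 0.17. The Wnt receptor FZD6 was at 9.15 and 9.35 in KDM4B hairpin arrays and 7.71 and 7.94 in control hairpin arrays. Its QC6352 values, 8.80, 8.67 and 8.72, overlapped those with DMSO, 8.92, 8.41 and 8.58. MSMO1, a demethylating oxidase of cholesterol synthesis, was at 10.83 and 10.81 in KDM4B hairpin arrays and 9.67 and 9.78 in control hairpin arrays, and at 10.51, 10.43 and 10.40 in QC6352 arrays against 10.68, 10.56 and 10.50 in DMSO arrays (hairpin effect 1.09 ± 0.11, QC6352 effect -0.13 ± 0.09). For MSMO1 and FZD6 the control hairpin arrays lay under all arrays of the other 3 groups, DMSO included, and the part of a low control in these rises was not tested. The carrier SLC35F2 (hairpin effect 1.09 ± 0.17, QC6352 effect -0.28 ± 0.14), the endosomal protein PLEKHB2 (1.16 ± 0.14 and -0.06 ± 0.12) and the proton-sensing receptor GPR65 (1.03 ± 0.25 and -0.14 ± 0.21) followed.

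**Figure D3:**
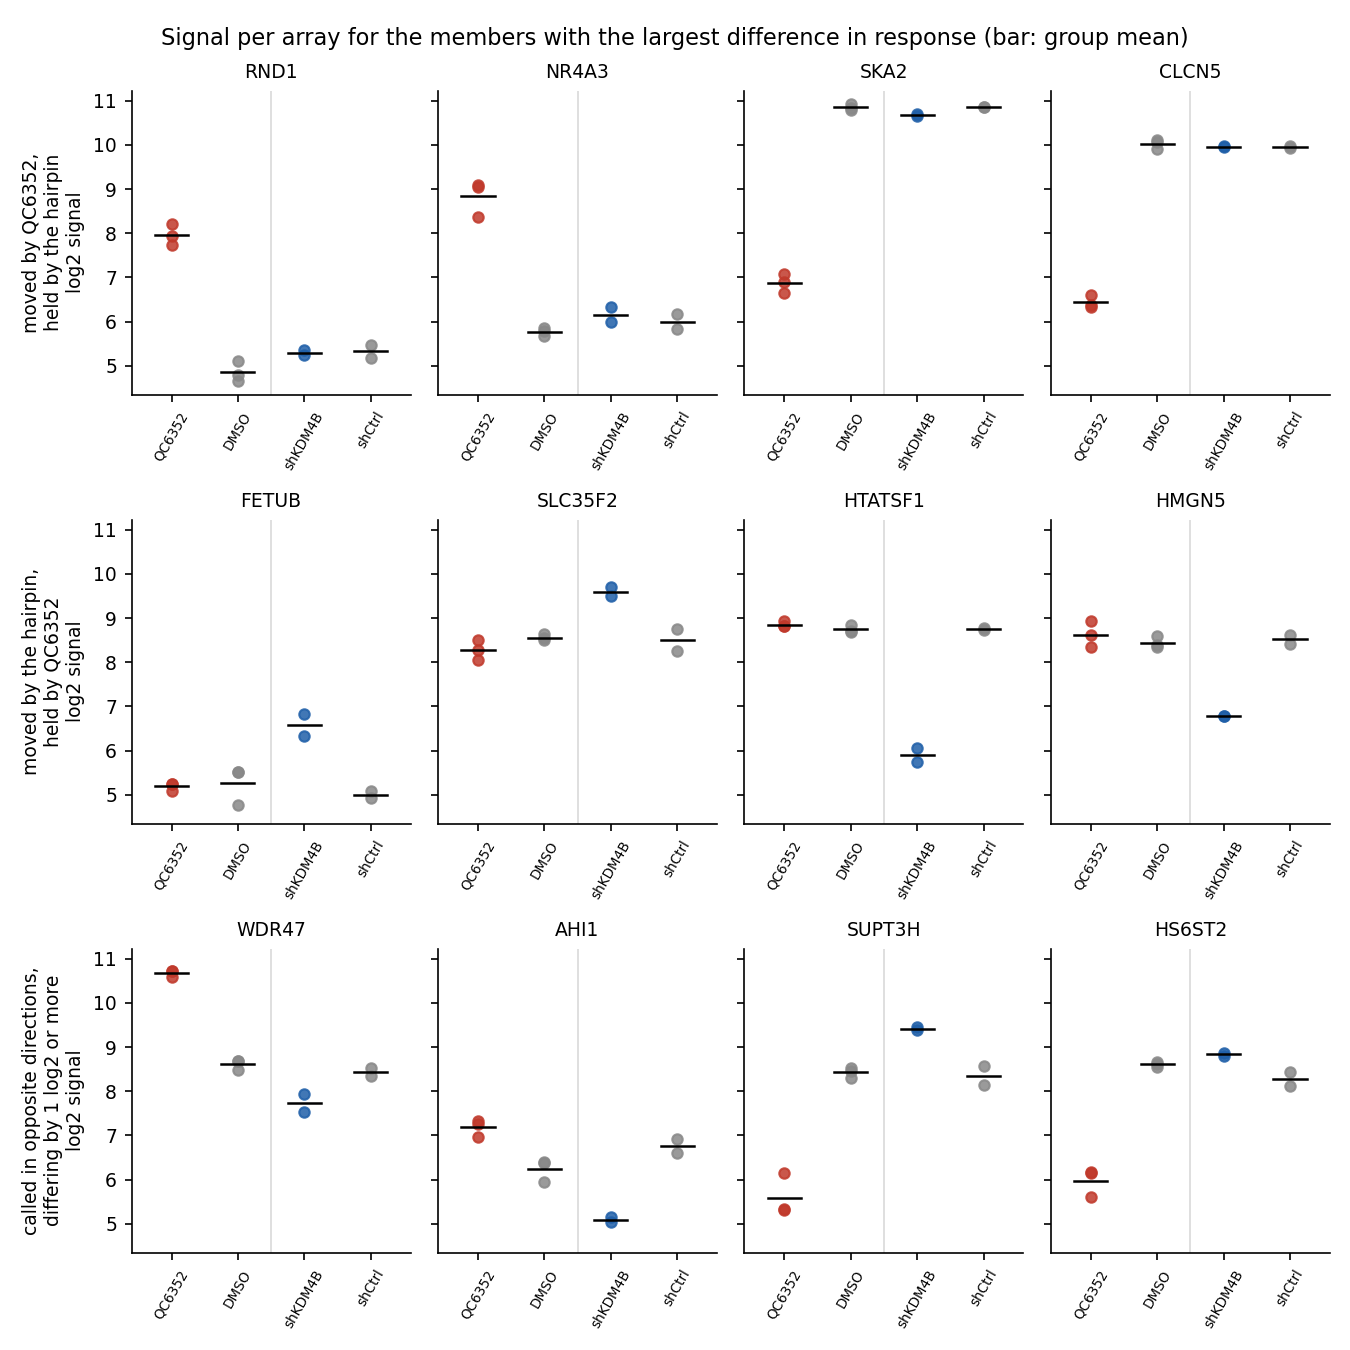
Log2 signal of every array (points) and group mean (bars) for the members with the largest positive and negative difference in response of 3 classes, in the order QC6352, DMSO, KDM4B hairpin and control hairpin. In the top row the QC6352 points stand apart, as for SKA2 at 6.66 to 7.08 against 10.78 to 10.91 with DMSO. In the middle row the KDM4B hairpin points do. Members of these rows were chosen among genes whose treated and control arrays did not overlap.

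A further 305 genes (1.72%) were called in both comparisons with opposite signs and differed by at least 1 log2. QC6352 raised 169 of them and lowered 136. This count moved with single hairpin arrays, to 175 without the KDM4B hairpin replicate 1, 202 without its replicate 2 and 199 without the control hairpin replicate 1. WDR47, a WD-repeat protein of neuronal microtubules, was at 10.71, 10.58 and 10.73 in QC6352 arrays and 8.49, 8.68 and 8.69 in DMSO arrays. In KDM4B hairpin arrays it was at 7.52 and 7.93, against 8.35 and 8.52 in control hairpin arrays. Neither pair of groups overlapped, and the difference in response was 2.76 ± 0.16 (adjusted p = 1.12e-09).

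SUPT3H, a subunit of the SAGA acetyltransferase complex, went the other way. It had 5.34, 5.30 and 6.14 in QC6352 arrays and 8.31, 8.53 and 8.46 in DMSO arrays, and 9.39 and 9.45 in KDM4B hairpin arrays against 8.13 and 8.57 in control hairpin arrays. The difference of -3.90 ± 0.32 log2 (adjusted p = 7.85e-08) was the most negative among the named members of this class. MCU, the pore of the mitochondrial calcium uniporter, was at 6.89, 7.12 and 6.82 in QC6352 arrays and 9.42, 9.28 and 9.39 in DMSO arrays, and at 9.89 and 10.07 in KDM4B hairpin arrays against 9.22 and 9.21 in control hairpin arrays. It fell 5.34-fold with the inhibitor and rose 1.7-fold with the hairpin.

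Other members were raised by QC6352 and lowered by the hairpin. They were the ciliary gene AHI1 (QC6352 effect 0.95 ± 0.15, hairpin effect -1.66 ± 0.18), the membrane-bending protein PSTPIP2 (0.89 ± 0.24 and -1.57 ± 0.29), UBN1, a subunit of the HIRA histone chaperone (1.06 ± 0.10 and -1.30 ± 0.13), and the mitochondrial carrier SLC25A35 (1.44 ± 0.11 and -0.91 ± 0.13). The members lowered by QC6352 and raised by the hairpin included the heparan sulfate sulfotransferase HS6ST2 (-2.63 ± 0.14 and 0.55 ± 0.17), the intracellular FGF homologue FGF13 (-2.55 ± 0.13 and 0.61 ± 0.16) and the transcription factor NFIA (-2.48 ± 0.09 and 0.47 ± 0.11).

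The genes moved at least 2-fold the same way by both agents numbered 58 (0.328%), with 29 rises and 29 falls. This rule asks for 2-fold in both effects while that of the opposite class does not, so the counts of 58 and 305 are not comparable. The difference in response was called in 19 of them and not in 39. CLDN1, a tight junction protein, was at 8.35, 8.56 and 8.55 in QC6352 arrays and 6.16, 6.06 and 6.43 in DMSO arrays, and at 7.84 and 8.01 in KDM4B hairpin arrays against 5.58 and 5.90 in control hairpin arrays. Its effects of 2.27 ± 0.13 and 2.18 ± 0.16 gave a difference of 0.09 ± 0.20, with a 95% interval from -0.34 to 0.52. SGK1, a kinase induced by glucocorticoids and osmotic stress, was at 9.64, 9.22 and 9.27 in QC6352 arrays and 5.35, 5.51 and 4.92 in DMSO arrays, and at 7.15 and 7.03 in KDM4B hairpin arrays against 5.59 and 5.18 in control hairpin arrays. Both agents raised SGK1, QC6352 17.3-fold and the hairpin 3.25-fold, and the difference was called (2.41 ± 0.33, adjusted p = 2.42e-05). CNTNAP1, a partner of the adhesion protein contactin (difference 0.39 ± 0.19), the fatty acid elongase ELOVL4 (0.28 ± 0.28) and the tight junction gene CLDN4 (0.41 ± 0.21) rose with both agents without a called difference.

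Among the shared falls was MYMK, the gene of myomaker, which drives myoblast fusion. It was at 6.33, 6.44 and 7.01 in QC6352 arrays and 8.67, 8.88 and 8.82 in DMSO arrays, and at 5.89 and 6.40 in KDM4B hairpin arrays against 7.84 and 7.99 in control hairpin arrays. All treated arrays lay under all controls, and the difference between the effects, -0.43 ± 0.26, had an interval from -0.98 to 0.11. The copper transporter ATP7A (difference 0.22 ± 0.38), the ciliary transport protein IFTAP (0.27 ± 0.17) and the centrosome gene CEP63 (-0.16 ± 0.19) fell with both agents and did not differ past the threshold. H4C1, a histone H4 gene, fell with both and fell further with QC6352 (-1.33 ± 0.31, adjusted p = 0.00332).

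Replication-dependent histones are the genes, most of them clustered on chromosome 6, whose messages are made in S phase to package new DNA. Of 50 measured members 31 had a lower response to QC6352 than to the hairpin and 0 a higher one, also 0 at an unadjusted p under 0.05, against 11.4% and 13.0% of all genes. Their median difference was -0.88 log2, against 0.01 over all genes. QC6352 lowered 45 (90.0%, against 16.5% of all genes) and the hairpin 17 (34.0%, against 6.31%), at medians of -1.31 and -0.44. Neither agent raised a member, also with 0 at an unadjusted p under 0.05. The divergent neighbours H2AC8 and H2BC8 had the most negative differences, and their promoters are shown because the pair is transcribed from a shared stretch. The 150 bases before each start are given 5′ to 3′ on the strand of the gene from RefSeq (GRCh38.p14), chr6:26216771-26216920 on the plus strand and chr6:26216689-26216838 on the minus strand, so that the windows overlap. Capitals mark CCAAT boxes on either strand, the element that NF-Y binds.
H2AC8: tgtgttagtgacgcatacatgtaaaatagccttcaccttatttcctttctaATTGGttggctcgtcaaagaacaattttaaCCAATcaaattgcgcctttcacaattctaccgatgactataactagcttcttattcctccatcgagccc
H2BC8: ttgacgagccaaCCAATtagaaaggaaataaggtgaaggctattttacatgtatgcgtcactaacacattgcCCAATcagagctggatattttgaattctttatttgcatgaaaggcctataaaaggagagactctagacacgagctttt
In the 250 bases before the start, CCAAT on either strand was found in 40 of the 46 histone genes with a promoter in the table (87.0%) and in 40.5% of all 14250. It was found in 21 of the 27 with a lower difference. Such a match is a description of letters. The motifs and this search were chosen with results known.

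H2AC8 was at 7.62, 8.11 and 8.03 in QC6352 arrays and 11.92, 11.89 and 11.79 in DMSO arrays, 15.5-fold lower. With the KDM4B hairpin it was at 11.49 and 11.36, and with the control hairpin at 11.88 and 11.83. The hairpin groups did not overlap, but the hairpin effect of -0.43 ± 0.15 did not pass the threshold (adjusted p = 0.0685). H2BC8 was at 7.26, 7.37 and 7.47 in QC6352 arrays and 10.75, 10.79 and 10.52 in DMSO arrays, and at 10.22 and 10.24 in KDM4B hairpin arrays against 11.06 and 10.68 in control hairpin arrays. Its hairpin effect was called (-0.64 ± 0.14, adjusted p = 0.00501), and its difference in response was -2.69 ± 0.18. Of the list, 5 genes were moved by QC6352 and held by the hairpin, H2BC18, H2BC21, H4C2, H4C3 and H4C11. Histone genes are close paralogs and their probes were not checked for cross-hybridization, so these counts may not be separate measurements.

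Genes of G1/S and DNA replication, which license and copy the genome, had a higher response to QC6352 in 23 of 49 cases (46.9%, against 13.0% of all genes) and a lower one in 1 (2.04%, against 11.4%), with a median difference of 0.37. The inhibitor raised 23 (46.9%, against 19.9% of all genes) and lowered 7 (14.3%, against 16.5%), while the hairpin lowered 13 (26.5%, against 6.31%) and raised 0 (2 at an unadjusted p under 0.05). CCNE2, the cyclin E2 that starts S phase, was at 9.85, 9.77 and 9.60 in QC6352 arrays and 8.44, 8.41 and 8.60 in DMSO arrays. In KDM4B hairpin arrays it was at 7.82 and 7.66, against 8.64 and 8.61 in control hairpin arrays. CCNE2 thus lay above its control in all QC6352 arrays and under it in both KDM4B hairpin arrays, with a difference of 2.14 ± 0.21 (adjusted p = 4.59e-07). CLSPN, the checkpoint adaptor claspin, had effects of 1.00 ± 0.11 with QC6352 and -0.94 ± 0.13 with the hairpin. The 1 member with a lower response was MCM2, a subunit of the replicative helicase (-0.78 ± 0.12 and 0.13 ± 0.15). CCNE2, CLSPN, CHAF1A and E2F1 were among the genes in opposite directions.

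Mitotic genes showed a higher response to QC6352 in 22 of 58 cases (37.9%) and a lower one in 6 (10.3%), against 13.0% and 11.4% of all genes (median difference 0.32). QC6352 raised 14 (24.1%, against 19.9% of all genes) and lowered 20 (34.5%, against 16.5%). The hairpin lowered 21 (36.2%, against 6.31%) and raised 0, also 0 at an unadjusted p under 0.05. TOP2A, the topoisomerase that untangles chromosomes, was at 11.65, 11.49 and 11.47 in QC6352 arrays and 11.37, 11.10 and 11.16 in DMSO arrays, and at 10.04 and 9.93 in KDM4B hairpin arrays against 11.27 and 11.20 in control hairpin arrays. The hairpin lowered it 2.37-fold while QC6352 raised it by a smaller amount (0.33 ± 0.10 log2, adjusted p = 0.0145). CENPU, a centromere protein, had effects of 0.83 ± 0.12 with QC6352 and -0.74 ± 0.14 with the hairpin. In the other direction, SMC4, a condensin subunit, had -1.80 ± 0.11 with QC6352 and -0.39 ± 0.13 with the hairpin (adjusted p = 0.0661 for the hairpin), as SKA2 above fell with QC6352. NCAPG, a condensin subunit, and NDC80, of the outer kinetochore, were moved by the hairpin and held by QC6352.

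Targets of p53, the stress-responsive tumour suppressor, had a higher response to QC6352 in 13 of 22 cases (59.1%) and a lower one in 1 (4.55%), against 13.0% and 11.4% of all genes (median difference 0.65). QC6352 raised 15 (68.2%, against 19.9% of all genes) and lowered 1 (4.55%, against 16.5%). The hairpin raised 7 (31.8%, against 5.26%) and lowered 3 (13.6%, against 6.31%). PMAIP1, the pro-apoptotic BH3 protein NOXA, was at 9.17, 9.23 and 9.31 in QC6352 arrays and 6.89, 6.74 and 6.75 in DMSO arrays, and at 7.44 and 7.11 in KDM4B hairpin arrays against 6.72 and 7.04 in control hairpin arrays. Its drug groups were apart by more than 2 log2 units and its hairpin effect of 0.39 ± 0.15 did not pass the threshold. PPM1D, the WIP1 phosphatase that dampens p53, had 1.41 ± 0.09 with QC6352 and -0.09 ± 0.11 with the hairpin. XPC, a DNA damage sensor of nucleotide excision repair, fell with QC6352 (-1.26 ± 0.10, against -0.07 ± 0.12 with the hairpin). RRM2B, a p53-induced subunit of ribonucleotide reductase, was in the reverse class, with a hairpin effect of -1.34 ± 0.17 and a QC6352 effect of -0.20 ± 0.14.

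Interferon-stimulated genes, the antiviral programme downstream of STAT and IRF factors, had a higher response to QC6352 in 18 of 47 cases (38.3%) and a lower one in 2 (4.26%), against 13.0% and 11.4% of all genes (median difference 0.42). QC6352 raised 27 (57.4%, against 19.9% of all genes) and lowered 3 (6.38%, against 16.5%). The hairpin raised 1 (2.13%, against 5.26%) and lowered 4 (8.51%, near the 6.31% of all genes). The promoters of 3 members are shown because 2 of these genes rose and 1 fell with QC6352 and each holds the interferon-stimulated response element. IFIT3 was chosen after its values were seen. The 150 bases before each start are given 5′ to 3′ on the strand of the gene from RefSeq (GRCh38.p14), IFI6 at chr1:27672193-27672342 on the minus strand, IFIT3 at chr10:89327847-89327996 on the plus strand and SAMD9 at chr7:93117980-93118129 on the minus strand. Capitals mark the core, which is GAAA, any 2 bases and GAAA, read on either strand.
IFI6: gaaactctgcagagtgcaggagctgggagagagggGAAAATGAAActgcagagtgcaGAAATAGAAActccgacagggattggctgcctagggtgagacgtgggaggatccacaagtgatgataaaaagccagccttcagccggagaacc
IFIT3: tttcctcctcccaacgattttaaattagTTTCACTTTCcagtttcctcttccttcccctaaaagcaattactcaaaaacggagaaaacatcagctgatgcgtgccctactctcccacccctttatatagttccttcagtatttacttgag
SAMD9: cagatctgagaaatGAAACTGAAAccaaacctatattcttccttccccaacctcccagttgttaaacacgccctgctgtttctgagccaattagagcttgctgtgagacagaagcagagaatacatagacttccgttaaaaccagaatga
In 250 bases before the start the core was found in 23 of 38 list members with a promoter in the table (60.5%) and in 3.56% of all 14250 genes. It was found in 10 of the 14 members with a higher difference and in 1 of the 2 with a lower one.

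IFI6, an interferon-induced protein that protects against apoptosis and flaviviruses, was at 10.04, 10.27 and 10.26 in QC6352 arrays and 8.0, 8.42 and 8.36 in DMSO arrays, and at 8.15 and 8.29 in KDM4B hairpin arrays against 8.02 and 8.47 in control hairpin arrays. The drug groups were apart and the hairpin groups overlapped, with a difference of 1.96 ± 0.24 (adjusted p = 8.09e-06). IFIT2, an RNA-binding antiviral protein, had 7.91, 8.38 and 8.60 in QC6352 arrays and 6.03, 5.91 and 5.57 in DMSO arrays, and 6.13 and 5.94 in KDM4B hairpin arrays against 5.75 and 5.79 in control hairpin arrays. IFIT3, its partner, had a QC6352 effect of 2.18 ± 0.14 and a hairpin effect of 0.78 ± 0.17, both called. SAMD9, an antiviral factor, was lower with QC6352, at 7.14, 7.55 and 7.58 against 8.13, 8.15 and 8.08 in DMSO arrays, and its hairpin effect was 0.18 ± 0.17. SP100, a component of PML nuclear bodies, had -0.95 ± 0.14 with QC6352 and -0.32 ± 0.17 with the hairpin. HERC5 and USP18, both of the ISG15 modifier pathway, were called in opposite directions, at 0.51 ± 0.12 and 0.37 ± 0.13 with QC6352 and -1.02 ± 0.15 and -0.64 ± 0.16 with the hairpin.

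Antigen presentation genes had a higher response to QC6352 in 10 of 16 cases (62.5%, against 13.0% of all genes) and a lower one in 0, also 0 at an unadjusted p under 0.05 (median difference 0.53). QC6352 raised 12 and the hairpin 3, at medians of 0.81 and 0.26. ERAP2, which trims peptides for MHC class I, was at 9.62, 9.31 and 9.43 in QC6352 arrays and 7.80, 7.65 and 7.60 in DMSO arrays, and its hairpin effect of 0.38 ± 0.20 did not pass the threshold. HLA-E, a class I molecule read by natural killer cells, rose with both agents, by 1.41 ± 0.12 with QC6352 and 0.53 ± 0.15 with the hairpin, and the difference was called (0.88 ± 0.20, adjusted p = 0.00222).

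Genes of MAPK feedback and the immediate early response had a higher response to QC6352 in 14 of 35 cases and a lower one in 5, against 13.0% and 11.4% of all genes (median difference 0.45). QC6352 raised 22 and lowered 4 (62.9% and 11.4%, against 19.9% and 16.5% of all genes), and the hairpin raised 11 and lowered 2 (31.4% and 5.71%, against 5.26% and 6.31%). HBEGF, an EGF receptor ligand, was at 9.96, 9.17 and 9.82 in QC6352 arrays and 7.02, 7.07 and 6.76 in DMSO arrays, and at 6.84 and 6.41 in KDM4B hairpin arrays against 7.31 and 7.03 in control hairpin arrays. Its difference of 3.25 ± 0.34 (adjusted p = 1.05e-06) was the largest positive one in this list. FOS, FOSB, JUNB and NR4A3, all inducible transcription factors, were moved by QC6352 and held by the hairpin. The feedback inhibitor SPRY1 was called in opposite directions, at -0.74 ± 0.10 with QC6352 and 0.76 ± 0.13 with the hairpin, and SPRY2 had -1.67 ± 0.09 and -0.34 ± 0.11. MYC was likewise opposite, at -0.43 ± 0.10 with QC6352 and 0.62 ± 0.12 with the hairpin.

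Lysosome and autophagy genes rose with QC6352 in 19 of 27 cases (70.4%, against 19.9% of all genes) and fell in 2 (7.41%, against 16.5%). The hairpin raised 7 (25.9%, against 5.26%) and lowered 2 (7.41%, against 6.31%). The difference was higher in 6 (22.2%) and lower in 2 (7.41%), against 13.0% and 11.4% of all genes (median 0.17). CD68, a lysosomal membrane glycoprotein best known from macrophages, was at 10.36, 10.35 and 10.29 in QC6352 arrays and 6.79, 6.75 and 6.60 in DMSO arrays, 12.3-fold higher. In KDM4B hairpin arrays it was at 7.26 and 7.26, against 6.96 and 6.78 in control hairpin arrays. Of the 14 blood markers, a list without CD68, 0 were called in the difference, against 24.5% of all genes. With QC6352, 3 of these markers (21.4%, against 19.9% of all genes) were called higher. The lysosomal calcium channel MCOLN1 had 0.98 ± 0.10 with QC6352 and -0.43 ± 0.13 with the hairpin. The autophagy genes UVRAG (-1.04 ± 0.12 with QC6352, 0.23 ± 0.14 with the hairpin) and GABARAPL1 (-0.18 ± 0.15 and 0.96 ± 0.18) had the lower responses.

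PAX3-FOXO1 targets, the genes the fusion protein is known to drive, had a lower response to QC6352 in 12 of 28 cases (42.9%) and a higher one in 2 (7.14%), against 11.4% and 13.0% of all genes (median difference -0.51). QC6352 lowered 16 and raised 4 of the 28, against 16.5% and 19.9% of all genes. The hairpin lowered 7 and raised 2 of the 28, against 6.31% and 5.26% of all genes. Each agent thus lowered a larger share of this list than of all genes. The median effects over the list were -0.52 with QC6352 and -0.06 with the hairpin. JARID2, a cofactor of Polycomb repression, was at 6.64, 6.85 and 6.46 in QC6352 arrays and 8.0, 8.06 and 7.95 in DMSO arrays, with hairpin values of 7.83 and 8.02 for KDM4B and 7.77 and 8.11 for the control. The potassium channel KCNN3 had -1.56 ± 0.09 with QC6352 and -0.24 ± 0.11 with the hairpin. The members with a higher response were the chemokine receptor CXCR4 (0.77 ± 0.10 and -0.05 ± 0.12) and the growth factor receptor IGF1R, which both agents raised (0.93 ± 0.09 and 0.43 ± 0.10, difference 0.49 ± 0.14).

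Myogenic regulators had a lower response to QC6352 in 7 of 17 cases (41.2%) and a higher one in 3 (17.6%), against 11.4% and 13.0% of all genes (median difference -0.43). MYOG, the differentiation factor myogenin, was at 9.06, 9.34 and 9.03 in QC6352 arrays and 11.72, 11.76 and 11.82 in DMSO arrays, and at 11.26 and 11.42 in KDM4B hairpin arrays against 11.58 and 11.67 in control hairpin arrays. It fell 6.17-fold with QC6352, while its hairpin effect of -0.29 ± 0.12 did not pass the threshold. MYF5, an early determination factor, was at 6.19, 6.29 and 6.55 in QC6352 arrays and 7.65, 7.64 and 7.62 in DMSO arrays, and at 8.99 and 9.08 in KDM4B hairpin arrays against 7.71 and 8.06 in control hairpin arrays. Both pairs of groups were apart, in opposite directions, with a difference of -2.44 ± 0.23 (adjusted p = 3.96e-07). Besides ID2, the higher responses included MEF2D, a cofactor of the myogenic factors (0.40 ± 0.11 with QC6352 and -0.31 ± 0.13 with the hairpin).

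Among muscle structural genes 7 of 39 were higher (17.9%) and 6 lower (15.4%), near the 13.0% and 11.4% of all genes (median difference 0.07). MYL1, a fast muscle myosin light chain, was at 9.61, 9.79 and 9.74 in QC6352 arrays and 7.64, 7.68 and 7.50 in DMSO arrays, with a hairpin effect of -0.04 ± 0.16. The muscle enolase ENO3 was called in opposite directions (0.81 ± 0.12 with QC6352 and -0.64 ± 0.15 with the hairpin). KLHL41, a sarcomere-stabilizing protein, had -1.71 ± 0.13 and -0.23 ± 0.17, and tropomyosin TPM2 had -0.94 ± 0.09 and 0.09 ± 0.11.

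Genes of the integrated stress response, which the factor ATF4 drives when translation is restrained, were raised more often than lowered by both agents. QC6352 raised 14 of 31 (45.2%, against 19.9% of all genes) and lowered 2 (6.45%, against 16.5%). The hairpin raised 17 (54.8%, against 5.26%) and lowered 1 (3.23%, against 6.31%). The difference was higher in 5 (16.1%) and lower in 8 (25.8%), against 13.0% and 11.4% of all genes (median -0.08). SLC7A11, the cystine transporter that feeds glutathione synthesis, was at 5.31, 5.76 and 5.41 in QC6352 arrays and 5.75, 6.45 and 6.25 in DMSO arrays. In KDM4B hairpin arrays it was at 7.90 and 7.70, against 5.43 and 5.80 in control hairpin arrays. The hairpin raised it 4.55-fold while QC6352 lowered it, although 1 QC6352 array lay level with a DMSO array, and the difference was -2.84 ± 0.31 (adjusted p = 1.87e-06). ATF4 itself was at 8.12, 8.12 and 8.06 in QC6352 arrays and 9.71, 9.78 and 9.64 in DMSO arrays, and at 10.43 and 10.52 in KDM4B hairpin arrays against 9.80 and 9.82 in control hairpin arrays. Its RNA was thus lower than control with QC6352 and higher than control with the hairpin, with no overlap in either pair. ATF3, a stress-induced repressor, rose with both, by 3.05 ± 0.12 with QC6352 and 0.91 ± 0.15 with the hairpin. PHGDH, the entry enzyme of serine synthesis, had 0.18 ± 0.12 with QC6352 and -0.60 ± 0.14 with the hairpin. TRIB3, a pseudokinase induced by ATF4, was moved by the hairpin (1.22 ± 0.15) and held by QC6352 (0.23 ± 0.12).

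Genes of sterol and fatty acid synthesis had a lower response to QC6352 in 10 of 25 cases and a higher one in 2, against 11.4% and 13.0% of all genes (median difference -0.40). The hairpin raised 8 and lowered 1, against 5.26% and 6.31% of all genes. QC6352 raised 7 and lowered 8, against 19.9% and 16.5% of all genes. The mean level of the list was 8.92 log2 in control hairpin arrays and 9.15 in KDM4B hairpin arrays. It was 9.23 in DMSO arrays and 9.1 in QC6352 arrays, so the control hairpin group was the lowest. The part of a low control in the hairpin rises of this list, and in its lower responses to QC6352, was not tested. ACACA, the acetyl-CoA carboxylase that commits carbon to fatty acids, was at 7.40, 7.29 and 7.61 in QC6352 arrays and 9.01, 8.84 and 9.02 in DMSO arrays. With the KDM4B hairpin it was at 9.27 and 9.14 and with the control hairpin at 8.77 and 8.90, apart but not past the threshold (adjusted p = 0.0546). ELOVL6, a fatty acid elongase, was called in opposite directions (-1.19 ± 0.13 with QC6352 and 0.62 ± 0.16 with the hairpin). The higher responses were in ACLY, which makes cytosolic acetyl-CoA (0.15 ± 0.08 and -0.71 ± 0.10), and in IDI1, of isoprenoid synthesis (0.39 ± 0.10 and -0.30 ± 0.12).

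Among cytosolic ribosomal proteins 19 of 44 (43.2%) had a lower response to QC6352 and 2 (4.55%) a higher one, against 11.4% and 13.0% of all genes (median difference -0.37). QC6352 lowered 28 (63.6%, against 16.5% of all genes) and raised 0, also 0 at an unadjusted p under 0.05. The hairpin lowered 2 (4.55%, against 6.31%) and raised 0, with the same count of 0 at an unadjusted p under 0.05. RPL10A was at 9.24, 9.53 and 8.86 in QC6352 arrays and 10.84, 10.78 and 10.87 in DMSO arrays, with a hairpin effect of -0.21 ± 0.15, and RPL24 had -1.21 ± 0.09 with QC6352 and 0.08 ± 0.10 with the hairpin. The 2 members lowered by the hairpin were those with a higher response, RPS12 (-1.61 ± 0.12, against -0.40 ± 0.10 with QC6352) and RPS26 (-0.51 ± 0.10 and 0.01 ± 0.09). Ribosomal protein genes have many processed pseudogenes, and the probes were not checked against them. Of 32 genes of MYC and ribosome biogenesis 13 (40.6%) had a lower response and 4 (12.5%) a higher one (median -0.43). RRS1, of the large subunit precursor, was called in opposite directions (-0.56 ± 0.12 with QC6352 and 0.68 ± 0.14 with the hairpin). The assembly factor NOP16 had -0.81 ± 0.12 and 0.31 ± 0.14, and the higher responses included the helicase DDX21 (-0.11 ± 0.10 and -0.85 ± 0.13) and UTP4 (0.43 ± 0.11 and -0.18 ± 0.13).

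The remaining JmjC demethylases, relatives of the target family, had a higher response to QC6352 in 6 of 19 cases (31.6%) and a lower one in 4 (21.1%), against 13.0% and 11.4% of all genes (median difference -0.10). KDM5A, which removes methyl groups from lysine 4 of histone H3, was at 9.47, 9.81 and 9.67 in QC6352 arrays and 8.31, 8.36 and 8.42 in DMSO arrays, and at 7.73 and 7.59 in KDM4B hairpin arrays against 8.27 and 8.29 in control hairpin arrays. It rose with QC6352 and fell with the hairpin, with a difference of 1.90 ± 0.14 (adjusted p = 2.79e-08). PHF8, a demethylase of lysine 9, had 0.11 ± 0.13 with QC6352 and -0.90 ± 0.16 with the hairpin. The lower responses were led by the ribosomal oxygenase RIOX2 (-1.09 ± 0.10 and 0.10 ± 0.12) and by JMJD1C (-0.96 ± 0.10 and 0.11 ± 0.12).

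**Figure D4:**
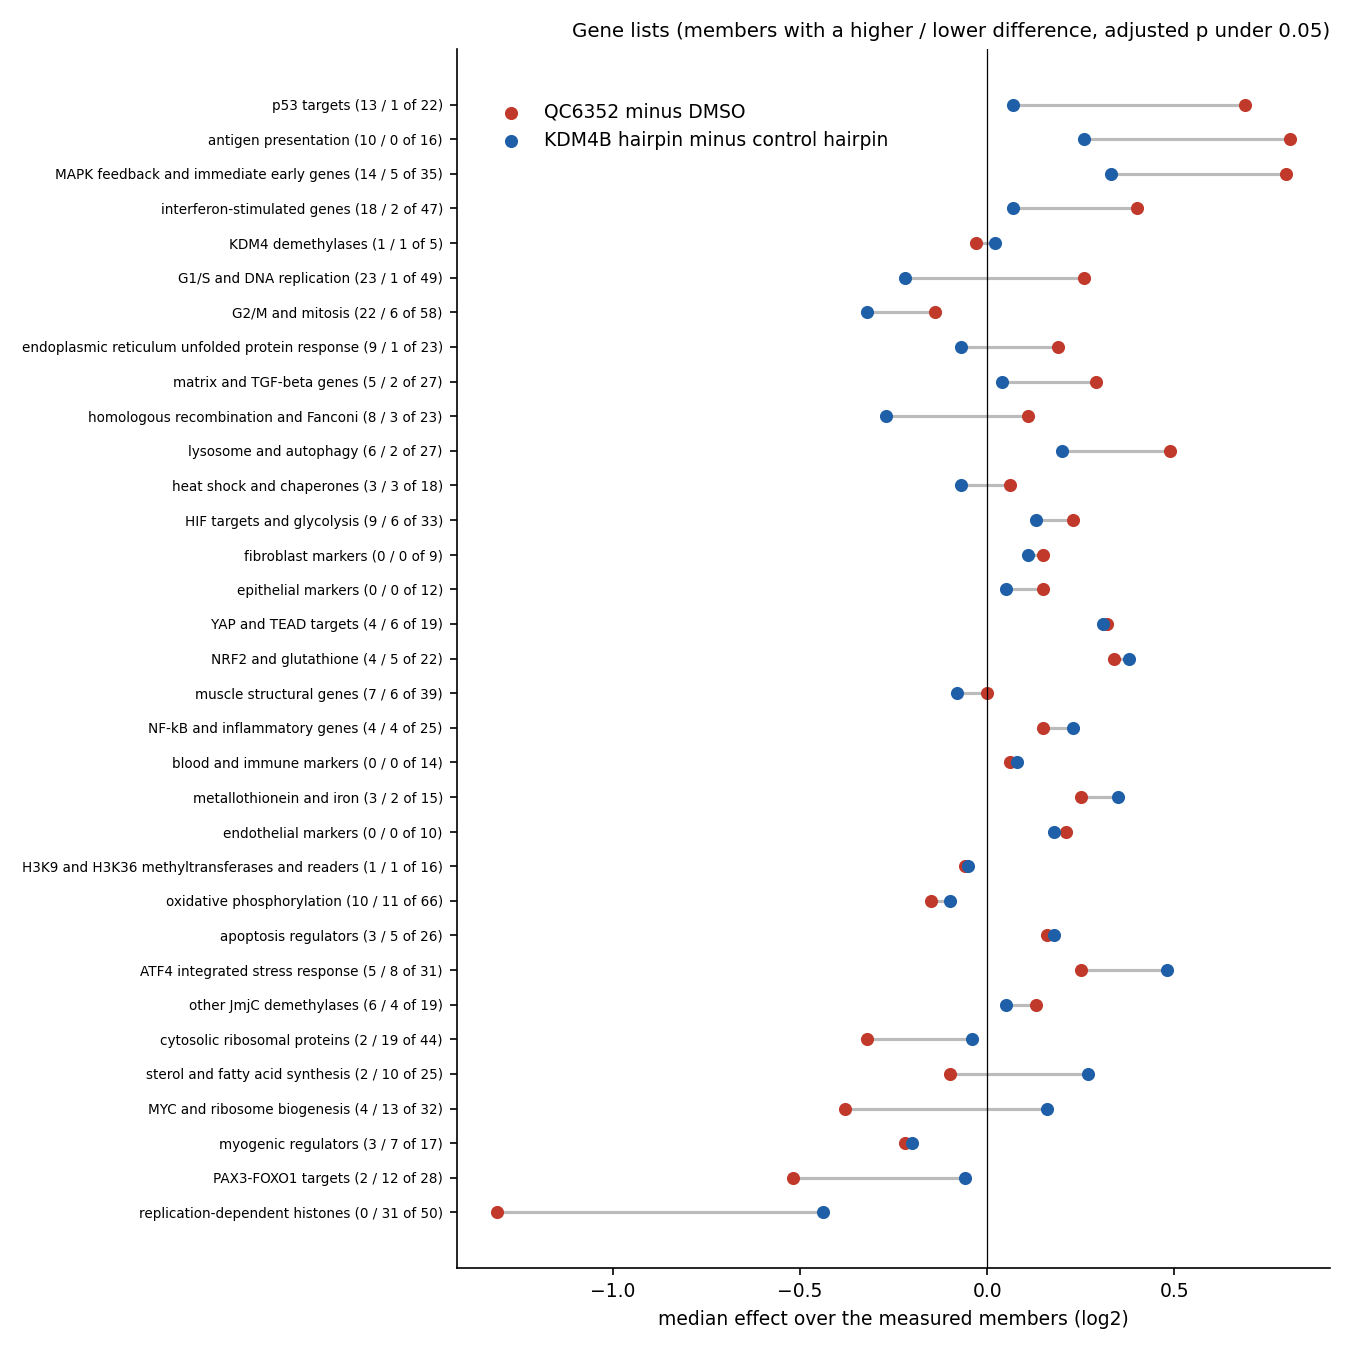
For each of 33 gene lists, the median effect over its measured members (log2) is shown for QC6352 minus DMSO (red) and for the KDM4B hairpin minus the control hairpin (blue), with lists ordered by their median difference and the counts of members with a higher and a lower difference beside the names. The red and blue points lie farthest apart for replication-dependent histones, at -1.31 and -0.44, and for p53 targets, at 0.69 and 0.07.

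The labels of the Rh41 arrays do not conflict. Their values entered the class rule only through the residual variance that the fit shares over all 20 arrays. Fitted on the 10 compared arrays alone, the classes held 526, 93, 243 and 58 genes. In Rh41 limma called 3479 genes for QC6352 against DMSO (19.7%), 1923 higher (10.9%) and 1556 lower (8.8%). Of the 237 genes that QC6352 raised in Rh30 and the hairpin held, 130 (54.9%) were called higher in Rh41 and 3 lower, with a median of 0.40 log2. Of the 316 that it lowered, 188 (59.5%) were called lower in Rh41 and 3 higher, with a median of -0.45. The sign in Rh41 was the same for 481 of the 553 genes (87.0%). Of the 71 genes lowered by the hairpin and held by QC6352 in Rh30, 2 were called lower with QC6352 in Rh41 and 13 (18.3%) higher, and of the 17 rises 2 were called higher and 1 lower. Across all genes the QC6352 effects in Rh41 correlated at r = 0.527 with those in Rh30 and at r = 0.075 with those of the hairpin, where genes are not independent replicates.

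Single members differed between the lines. CLCN5 fell in Rh41 too, to 7.0, 7.14 and 7.13 in QC6352 arrays against 9.88, 9.85 and 9.90 in DMSO arrays (-2.78 ± 0.09, adjusted p = 1.05e-12). Its effect differed between the lines by 0.80 ± 0.13 (Rh41 minus Rh30, adjusted p = 2.03e-04). MSTN was at 11.10, 11.09 and 11.00 in QC6352 arrays of Rh41 and 11.13, 11.06 and 11.07 in its DMSO arrays, with overlap and an effect of -0.02 ± 0.12 (95% interval -0.27 to 0.22). The QC6352 effect on MSTN differed between the lines by 3.49 ± 0.17 log2 (Rh41 minus Rh30, adjusted p = 3.31e-10). Likewise RND1 had 0.10 ± 0.17 in Rh41 (difference between lines -3.00 ± 0.25, adjusted p = 1.11e-07) and MYOG 0.28 ± 0.10 (difference 2.91 ± 0.14, adjusted p = 3.31e-10). ID2 rose in both lines and SKA2 fell in both, at 0.94 ± 0.13 and -1.04 ± 0.11 in Rh41. Both effects were smaller in Rh41, with differences between lines of -1.67 ± 0.18 for ID2 (adjusted p = 2.85e-06) and 2.92 ± 0.15 for SKA2 (adjusted p = 4.96e-10).

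Of all genes, 10.9% were called higher and 8.8% lower in Rh41, against 19.9% and 16.5% with QC6352 in Rh30. Of the other classes, 70 (41.4%) of the 169 genes raised by QC6352 and lowered by the hairpin were called higher in Rh41 and 4 (2.37%) lower. Of the 136 lowered by QC6352 and raised by the hairpin, 49 were called lower in Rh41 and 10 higher. Of the genes moved the same way by both agents, 17 of 29 rises (58.6%) were called higher in Rh41 and 14 of 29 falls (48.3%) lower. Histones were called lower in Rh41 in 44 of 50 cases (88.0%) and interferon-stimulated genes higher in 28 of 47 (59.6%). QC6352 in Rh30 raised 14 (45.2%) and lowered 2 (6.45%) of 31 integrated stress response genes. In Rh41 they were called higher in 0 and lower in 12 (38.7%), with 1 higher at an unadjusted p under 0.05. Muscle structural genes were called higher in 7 (17.9%) and lower in 2 (5.13%) of 39 in Rh41, against 5 (12.8%) and 11 (28.2%) in Rh30. Myogenic regulators were higher in 3 (17.6%) and lower in 2 (11.8%) of 17, against 3 (17.6%) and 8 (47.1%) in Rh30. The difference between the lines was not tested for these lists.

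**Figure D5:**
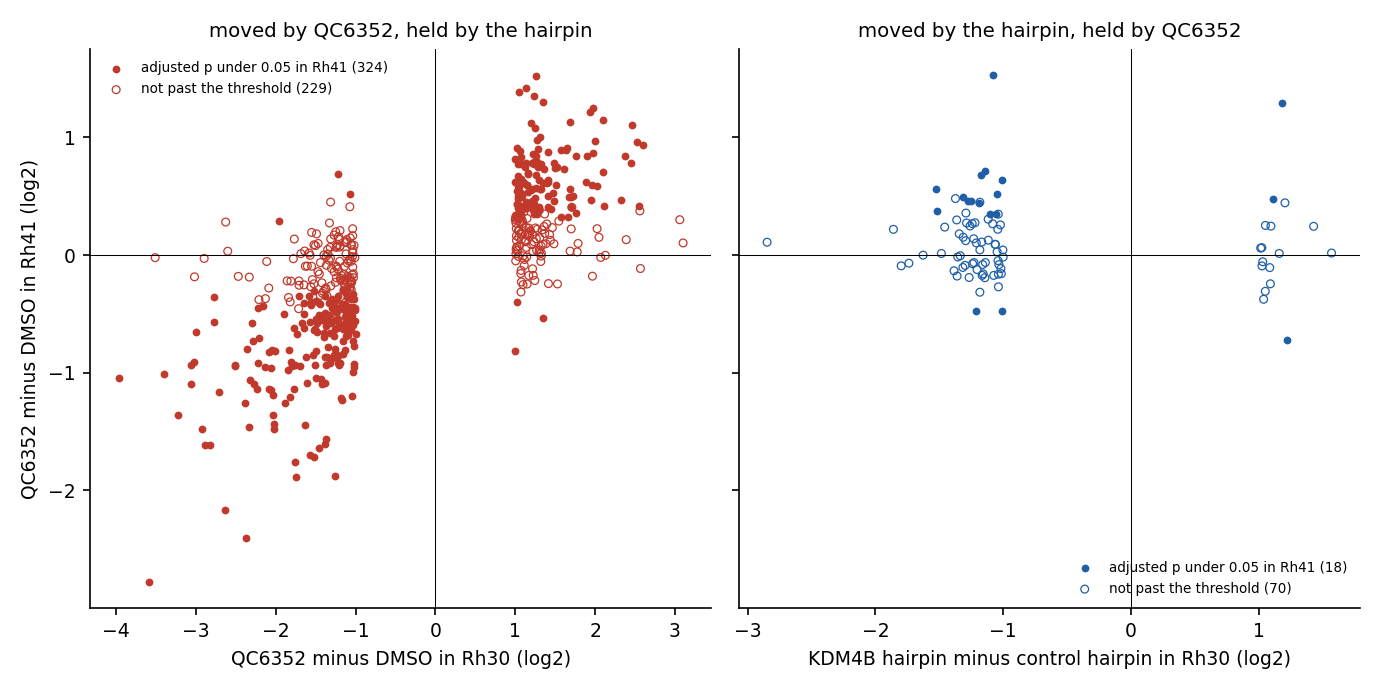
QC6352 effect in Rh41 (y axis, log2) for the 553 genes moved by QC6352 and held by the hairpin in Rh30 (left, against the QC6352 effect in Rh30) and for the 88 genes moved by the hairpin and held by QC6352 (right, against the hairpin effect). Filled points passed the threshold in Rh41, 324 of 553 on the left and 18 of 88 on the right.

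The siRNA against KDM4C, given for 72 h in Rh30, was called in few genes of either class. KDM4C itself was at 6.316 or less in its siRNA arrays and at 6.481 or more in control siRNA arrays. The effect of -0.23 ± 0.19 log2 did not pass the threshold by limma (adjusted p = 0.651). A loss of KDM4C RNA was therefore not shown, and the few calls cannot be read as its effect. The siRNA was called in 81 of all genes (0.458%), 47 higher (0.266%) and 34 lower (0.192%). Among the 553 genes moved by QC6352 and held by the KDM4B hairpin, 2 were called higher and 3 lower with the siRNA. Among the 88 of the reverse class 0 were called by limma, while at an unadjusted p under 0.05 there were 10 higher and 2 lower. All 4 siRNA arrays are among those whose labels differ from the sample names, and the title of 1 KDM4C array names an shRNA where its source name gives the siRNA.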

How the data were processed

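RNA of the 20 arrays was hybridized to Clariom S human arrays. The deposited values are log2 signals per probe set made by the authors, as the range of the values shows. The submitters' processing notes name GCOS, and the background correction, normalization and summarization are otherwise not given in the sources used here. No further normalization was applied.

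Probe sets were named through the platform annotation, and symbols were checked by gene ID against RefSeq, with 0 changed. Of 24351 probe sets, 17709 had 1 symbol, 22 second probe sets of a gene were left out by mean signal, and 17687 genes were tested. A model with 8 group means was fitted to all 20 arrays with limma 3.58.1 in R 4.3.3 (lmFit, contrasts and eBayes, Benjamini-Hochberg adjustment over all genes, threshold 0.05). Adjusted p-values in the text come from this fit, except those given for groups by sample name, which come from a fit of those groups. Probe sets without a gene name were fitted apart. Groups were taken from the titles, except those of the 2 KDM4C siRNA arrays, which came from the source name because the title of 1 of them names an shRNA. Replicate numbers were not shown to pair arrays, so no block was used.

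The members, gene lists and motifs were chosen with earlier results of these data known, and the gene length comparison was chosen after values were seen. The named genes were the KDM4 family, the 6 rises and 6 falls with the largest difference in each class moved by 1 agent and held by the other whose treated and control arrays did not overlap, the 5 largest positive and 5 largest negative differences of the opposite class, the 5 rises and 5 falls of the class moved the same way whose smaller effect was largest, and the 2 most positive and 2 most negative called differences of each list. Genes named from outside the rule (lineage markers, IFIT3, and class members within lists) were chosen after their values were seen. A probe set was called near background if its group mean lay within 1 log2 unit of the median of the array's background probe sets. Promoters and gene spans came from RefSeq tables of GRCh38.p14. Alternatives were other normalizations, a filter without the lowest 40% of probe sets, trend and robust variance, array weights, the 10 arrays alone, the replicate block, every probe set, other folds and bounds, groups by sample name and leaving out each array.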

Additional observations from a re-analysis of the deposited data

Results flagged for a closer look

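The QC6352 effect on IGF1R, the insulin-like growth factor receptor, differed in sign between the cell lines. It was -0.407 ± 0.085 log2 in Rh41 and 0.928 ± 0.085 in Rh30 (± SE, n = 3 against 3 arrays in each), and the difference of -1.334 ± 0.121 passed the threshold by limma (adjusted p = 3.307e-07). The QC6352 effect on SAMD9 was 1.711 ± 0.143 in Rh41 and -0.697 ± 0.143 in Rh30, a difference of 2.408 ± 0.202 (adjusted p = 1.313e-07). Of the 3739 transcript probe sets that carry no gene name and enter no comparison of the report, 635 (17.0%) had a difference in response past the threshold when tested on their own, 358 higher and 277 lower.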

How the results depend on the processing

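The call counts depended on which label gave the groups and, for the classes, on their bounds. With groups by sample name, the difference was called in 613 genes (4331 by title), 2 genes were moved by QC6352 and held by the hairpin (553), 5 were in opposite directions (305), and 0 moved the same way (58), while 120 (88) were moved by the hairpin and held by QC6352. Among 104 named genes, 29 changed sign of the difference under sample names, to -0.89 for ATF3, -0.24 for CD68, 0.46 for ELMO1, 0.15 for H2AC8, 0.32 for H2BC8, 1.41 for H4C1, -0.40 for HLA-E, -0.23 for IFI6, -0.09 for IFIT2, -0.45 for IGF1R, 0.29 for JARID2, 0.45 for KCNN3, -0.053 for KDM4A, 0.16 for KLHL41 and 0.003 for MCM2. The others were 0.43 for MSTN, -0.15 for MYL1, 0.48 for MYOG, -0.48 for PMAIP1, -0.008 for PPM1D, 0.28 for RIOX2, 0.41 for RPL10A, 0.005 for RPL24, -1.09 for SGK1, 0.20 for SKA2, 0.42 for SMC4, 0.61 for SP100, 0.45 for SPRY2 and 0.043 for XPC, none of them past the threshold (adjusted p from 0.295 to 0.998). Replicate arrays of the Rh30 QC6352 and DMSO groups correlated at 0.977 to 0.995 by sample name and at 0.990 to 0.995 by title. The 2 arrays named control siRNA correlated at 0.960. Under the other settings 95 to 104 of these genes kept direction and side of the threshold, and 0 changed sign. A difference of at least 1 log2 left 1557 genes. A tighter bound left 60 genes moved by QC6352 and 28 moved by the hairpin, no bound gave 925 for QC6352, and a fold of 1.5 for a moved gene gave 1463 and 311, and 334 moved the same way. Leaving out each array gave 3439 to 4283 for the difference, 384 to 635 and 82 to 104 for the classes moved by QC6352 and by the hairpin, 175 to 330 for opposite directions and 54 to 67 for the same way. With the replicate number as a block the difference was called in 3960 genes, and the classes held 539, 90, 250 and 57 genes. Same-numbered arrays deviated together with correlations of 0.061 to 0.26, so the numbers were not shown to pair arrays. Signals near background limit KDM4D, KDM4E, OR4F15, RND1, CMSS1 and ATP7A.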

Other observations

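Unfolded protein response genes of the endoplasmic reticulum had a higher response to QC6352 than to the hairpin in 9 of 23 cases (39.1%, against 13.0% of all genes) and a lower one in 1 (4.35%, against 11.4%), with a median difference of 0.29 log2. QC6352 raised 8 and lowered 4 of them (34.8% and 17.4%, against 19.9% and 16.5% of all genes), and the hairpin raised 1 and lowered 5 (4.35% and 21.7%, against 5.26% and 6.31%). Homologous recombination and Fanconi anaemia genes were higher in 8 of 23 (34.8%, against 13.0% of all genes) and lower in 3 (13.0%, against 11.4%). Their median difference was 0.28. FANCC, of the Fanconi core complex, was moved by QC6352 (-2.05 ± 0.11) and held by the hairpin (0.16 ± 0.13). NRF2 targets defend against oxidants. Of 22, QC6352 raised 10 (45.5%, against 19.9% of all genes) and the hairpin 8 (36.4%, against 5.26%). Of their differences 4 were higher and 5 lower (18.2% and 22.7%, against 13.0% and 11.4% of all genes). Metallothionein and iron genes rose with QC6352 in 9 and with the hairpin in 8 of 15 cases, against 19.9% and 5.26% of all genes, and TFRC, the transferrin receptor, was in the class moved by the hairpin.

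NF-kB targets rose with QC6352 in 12 (48.0%, against 19.9% of all genes) and with the hairpin in 6 (24.0%, against 5.26%) of 25 cases. Of their differences 4 were higher and 4 lower (16.0% each, near the 13.0% and 11.4% of all genes). Of 19 YAP targets, of the Hippo pathway, 4 were higher (21.1%) and 6 lower (31.6%), against 13.0% and 11.4% of all genes. ANKRD1 and NT5E were in opposite directions (QC6352 effects of -0.72 ± 0.13 and -1.22 ± 0.16, hairpin effects of 0.56 ± 0.16 and 1.21 ± 0.19). Hypoxia targets were higher in 9 (27.3%) and lower in 6 (18.2%) of 33 cases, against 13.0% and 11.4% of all genes. Mitochondrial respiratory genes were higher in 10 (15.2%) and lower in 11 (16.7%) of 66, near the shares of all genes, with QC6352 lowering 22 (33.3%, against 16.5% of all genes) and the hairpin 14 (21.2%, against 6.31%). Apoptosis regulators were higher in 3 (11.5%) and lower in 5 (19.2%) of 26 cases, against 13.0% and 11.4% of all genes. BCL2L11, the pro-apoptotic protein BIM, rose with QC6352 (1.69 ± 0.09) and was held by the hairpin (0.04 ± 0.11). Matrix and TGF-beta genes were higher in 5 (18.5%) and lower in 2 (7.41%) of 27 cases. Heat shock genes were higher in 3 and lower in 3 (16.7% each) of 18, and both lists were near the shares of all genes. Of 16 writers and readers of lysine 9 and lysine 36 methylation, 1 was higher and 1 lower (6.25% each, against 13.0% and 11.4%).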
